A study of Mus musculus with 12 samples.

Results

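The 6 libraries described here are ATAC-seq profiles of 2 mouse tumour cell lines after decitabine, out of 12 libraries in the study. ATAC-seq uses a transposase to insert sequencing adapters into open DNA, so that peaks mark accessible chromatin. B16F10 is a pigmented melanoma line that descends from C57BL/6 mice, and 4T1 is a mammary carcinoma line that descends from BALB/c mice. The treated B16F10 group (3 libraries) had received 0.1 µM DAC for 48 h and the treated 4T1 group (3 libraries) 1 µM DAC for 48 h. The other 6 libraries, 3 untreated ones of each line, are used only as the background against which each line difference is read. In all groups cells were cultured lines, live cells had been kept after removal of dead cells, and nuclei were transposed after washing. The members were chosen by the labels of line and treatment, and every library was limited to its 54007 strongest peaks on the 19 autosomes and X, the number in the smallest of the 6 (treated B16F10 replicate 3). The doses differ between the lines, so line, dose, strain background and preparation cannot be told apart in what follows. The labels number the replicates without saying whether each was a culture of its own, so a p-value here measures spread among libraries that may be technical.

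Decitabine (DAC, 5-aza-2'-deoxycytidine) is a cytidine analogue that is built into replicating DNA and traps DNA methyltransferases, so that methylation is lost as cells divide. Methylation keeps many germline gene promoters, imprinted alleles and transposable elements closed in somatic cells. Cell identity, by contrast, is largely held by enhancers bound by lineage factors: MITF and SOX10 in melanocytes and melanoma, and GRHL, OVOL and AP-1 factors in epithelial carcinoma. AP-1 is the dimer of FOS and JUN proteins that opens many enhancers in growth-stimulated and transformed cells.

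The 4 regions below were taken from the strongest distal regions open in one treated line alone and are shown because their summits carry lineage motifs. A region is a set of overlapping peaks, and it counts as open in one line alone when all 3 libraries of that line and none of the other had a peak in it at equal peak number. Each sequence is 200 bases around the summit, plus strand, GRCm38.p6 (mm10). Capitals mark matches on either strand to the motifs named with it: MITF TCANGTG, SOX AACAATG, TEAD GGAATG, AP-1 TGANTCA and RUNX TGTGGT. A match describes the letters and is not evidence of binding.

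B16F10 alone, chr15:63616642-63616841, intergenic, nearest gene start Gsdmc, MITF: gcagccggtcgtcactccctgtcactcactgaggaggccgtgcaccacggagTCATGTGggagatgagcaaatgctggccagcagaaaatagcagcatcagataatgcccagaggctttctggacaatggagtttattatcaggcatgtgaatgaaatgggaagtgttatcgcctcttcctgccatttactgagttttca

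B16F10 alone, chr15:59197674-59197873, intergenic, nearest gene start Mtss1, SOX and TEAD: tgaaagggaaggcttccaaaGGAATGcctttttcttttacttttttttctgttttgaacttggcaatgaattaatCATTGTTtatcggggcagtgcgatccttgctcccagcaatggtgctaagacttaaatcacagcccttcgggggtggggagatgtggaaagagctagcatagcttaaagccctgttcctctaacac

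4T1 alone, chr17:6614866-6615065, intergenic, nearest gene start Dynlt1c, AP-1 and RUNX: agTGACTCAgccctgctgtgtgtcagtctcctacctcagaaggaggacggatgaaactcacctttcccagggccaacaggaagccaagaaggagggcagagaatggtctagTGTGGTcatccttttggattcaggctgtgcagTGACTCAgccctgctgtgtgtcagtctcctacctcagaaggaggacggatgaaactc

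4T1 alone, chr15:61532867-61533066, intergenic, nearest gene start Myc, AP-1 and TEAD: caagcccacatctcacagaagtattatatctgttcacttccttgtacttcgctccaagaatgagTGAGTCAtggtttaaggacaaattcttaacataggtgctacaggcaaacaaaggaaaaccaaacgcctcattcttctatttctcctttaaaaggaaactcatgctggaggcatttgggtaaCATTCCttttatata

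The first region (chr15:63616339-63617547) lay 192017 bp downstream of the start of Gsdmc, and its peak stood at the 99.92, 99.91 and 99.92 percentile in treated B16F10 replicates 1 to 3. The strength percentile is the rank of a peak's −log10 p-value within its own equal-length list, with 100 the strongest. The second (chr15:59197346-59198513) lay 115769 bp upstream of Mtss1, which codes for a membrane-bending protein, with percentiles of 99.66, 99.54 and 99.79. The third (chr17:6614431-6615330) lay 13295 bp downstream of Dynlt1c, a dynein light chain gene with near-identical neighbouring copies, and stood at 99.88, 99.86 and 99.89 in treated 4T1. The fourth (chr15:61531998-61533467) lay 452424 bp upstream of Myc, the growth-promoting transcription factor, with 99.60, 99.73 and 99.63. All 4 had a peak in each of the 3 untreated libraries of their own line and in none of the other line's untreated libraries.

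As deposited, treated 4T1 had 110491, 118438 and 107938 peaks on these chromosomes and treated B16F10 had 54096, 58443 and 54007, a ratio of means of 2.02 (exact two-sided permutation test, p = 0.10, the smallest that 3 against 3 libraries allow). Limiting every list to 54007 therefore kept 45.6 to 50.0% of each 4T1 list and 92.4 to 100% of each B16F10 list. The weakest peak kept had a −log10 p-value between 25.9 and 31.7 in 4T1 and between 3.22 and 5.86 in B16F10, so a weaker peak in 4T1 can be missing at equal number and present in the full list. Counts from the full lists are therefore given beside the main ones. The lists carry no read totals, so depth is unknown beyond the minimum in the labels. The list of treated B16F10 replicate 2 had 0 peaks on unplaced scaffolds, where the other treated B16F10 lists had 510 and 514, and scaffolds were not used.

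The labels of both lines were checked against marker promoters. A promoter is the 1000 bp on each side of a gene's 5′ end, and it is called open where a peak overlaps it. Of 10 melanocyte markers, 6 were open in treated B16F10 alone, 2 in all 6 libraries and 2 in none, and their summed percentile was 649, 647 and 656 in B16F10 against 175, 177 and 169 in 4T1. Of 14 mammary epithelial markers, 12 were open in treated 4T1 alone, with sums of 853, 833 and 829 against 76.1, 81.0 and 73.3 in B16F10. Of 20 leukocyte genes, 18 were open in none of the 6, and the sums were 58.3 to 95.8 in B16F10 and 47.1 to 54.6 in 4T1. Tyr (tyrosinase, the first enzyme of melanin synthesis), a defining melanocyte gene, had no promoter peak in any of the 12 libraries at any strength.

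Among 21732 genes, 684 promoters (3.15%) were open in treated B16F10 alone and 1188 (5.47%) in treated 4T1 alone, while 9847 (45.3%) were open in all 6 libraries and 9011 in none. In the full lists the split was 295 (1.36%) against 2350 (10.8%), with 47.2% open in all 6. Of the 684 B16F10-alone promoters, 288 (42.1%) had no peak in any full list of treated 4T1 and 275 (40.2%) had one in all 3. Of the 1188 4T1-alone promoters, 1162 (97.8%) had no peak in any full list of treated B16F10. A B16F10-alone call at equal number thus often meant that the 4T1 peak lay outside its 54007 strongest, and a 4T1-alone call mostly meant a peak against no called peak. The number of open promoters per library was 10937 to 10994 in B16F10 and 11404 to 11429 in 4T1 (exact two-sided permutation test, p = 0.10), with no overlap.

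Most promoters open in one treated line alone were also open in the untreated cells of that line. The other untreated line lacked the peak far more often for 4T1-alone than for B16F10-alone promoters. The full lists hold 89727 to 94174 peaks in untreated 4T1 and 49602 to 53295 in untreated B16F10. Part of that contrast therefore follows from list length by construction, and its size was not tested. Of the B16F10-alone promoters, 613 (89.6%) were open in all 3 full lists of untreated B16F10 and 18 in none of them. Of the 4T1-alone promoters, 1104 (92.9%) were open in all 3 full lists of untreated 4T1 and 70 in none. The full lists of untreated 4T1 all had a peak at 238 (34.8%) of the B16F10-alone promoters, and those of untreated B16F10 at 9 (0.758%) of the 4T1-alone ones. Open in all 3 untreated libraries of the own line and without a peak in any full list of the other line, treated or untreated, were 215 (31.4%) of the B16F10-alone and 1038 (87.4%) of the 4T1-alone promoters. With all 12 libraries limited to 49602 peaks, 685 (3.15%) promoters were open in untreated B16F10 alone and 1214 (5.59%) in untreated 4T1 alone, against 701 (3.23%) and 1148 (5.28%) after DAC. Of the treated 701, 534 (76.2%) were in the same class without treatment, and of the treated 1148, 974 (84.8%).

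Among 26 gene lists, pigment genes had the most members open in treated B16F10 alone. Of 20 genes of melanin synthesis and the melanosome, the organelle that stores pigment, 9 were open in treated B16F10 alone, 7 in all 6 libraries, 4 in none and 0 in treated 4T1 alone, where 3.15% and 5.47% of all genes were open in B16F10 and in 4T1 alone. In the full lists 8 were open in treated B16F10 alone and 1 in treated 4T1 alone. Dct, which codes for dopachrome tautomerase of the melanin pathway, stood at 96.4, 96.7 and 95.8 in treated B16F10 with no peak in any of the 6 4T1 libraries. Rab38, a small GTPase that sorts cargo to melanosomes, stood at 93.2, 95.4 and 93.4. Mlana (melan-A, a melanosome protein) had 81.5, 82.4 and 81.6. These 3 genes had no 4T1 peak in the full lists, treated or untreated. Gpr143, a receptor of the melanosome membrane, stood at 81.7, 77.9 and 77.5, and Tyrp1, another melanin enzyme, at 58.5, 55.5 and 62.0. Pmel, which builds the fibrils of the melanosome, was by contrast open in all 6, at 83.6, 79.5 and 80.7 in B16F10 and 77.7, 80.7 and 72.2 in 4T1, and the groups overlapped. Gpnmb, a melanosome glycoprotein, was also open in all 6 but at 88.5 ± 0.79 against 4.36 ± 2.26 (SD, n = 3).

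The Dct promoter is printed because it ranked among the strongest B16F10-alone promoters, and the Krt8 promoter as a lineage promoter of 4T1. Promoter sequences are the 250 bases before the gene's start from RefSeq (GRCm38.p6), written 5′ to 3′ on the gene's strand, with each CG in capitals.

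Dct, chr14:118052247-118052496, minus strand: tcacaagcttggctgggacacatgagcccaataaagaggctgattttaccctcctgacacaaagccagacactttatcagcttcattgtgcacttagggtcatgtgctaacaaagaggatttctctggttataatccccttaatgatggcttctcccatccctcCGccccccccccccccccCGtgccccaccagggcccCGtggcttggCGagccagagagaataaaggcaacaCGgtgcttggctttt

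Krt8, chr15:102004343-102004592, minus strand: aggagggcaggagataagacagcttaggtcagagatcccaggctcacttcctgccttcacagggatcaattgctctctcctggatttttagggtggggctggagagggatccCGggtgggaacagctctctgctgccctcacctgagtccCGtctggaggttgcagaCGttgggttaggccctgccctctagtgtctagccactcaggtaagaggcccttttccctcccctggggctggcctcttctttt

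These hold 5 and 3 CpG sites. Over 26794 genes of the RefSeq table, which include genes outside the 21732 tested, the median was 6. It was 7 in the 482 B16F10-alone promoters with an entry (of 684), 13 in the 858 4T1-alone promoters (of 1188) and 18 in the 7796 promoters open in all 6 (of 9847).

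Regulators of melanocytes and the neural crest, the embryonic source of pigment cells, were split. Of 20, 5 were open in treated B16F10 alone and 2 in treated 4T1 alone, and in the full lists 3 and 6. All genes gave shares of 3.15% and 5.47%, and in the full lists 1.36% and 10.8%. Mitf, the master regulator of pigment cells, was open in all 6 libraries at 95.0, 97.3 and 95.3 in B16F10 and 96.8, 96.2 and 97.1 in 4T1, without separation of the lines. Sox10, its partner and upstream regulator, stood at 65.0, 67.2 and 67.1 in B16F10 and had no 4T1 peak at its 5′ end, although another annotated start of the gene had one in treated 4T1. Pax3, a neural crest factor, reached 98.0, 97.3 and 94.8 in B16F10, and all 3 full lists of treated 4T1, but none of untreated 4T1, had a peak there, at 11.6, 28.1 and 17.5 of their own length. Sox9, which drives cartilage and epithelial progenitor programmes, was open in treated 4T1 alone at 73.9, 76.0 and 76.7. Lef1, a nuclear effector of Wnt signalling, was open in treated 4T1 alone at 26.4, 33.8 and 16.7.

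**Figure D1:**
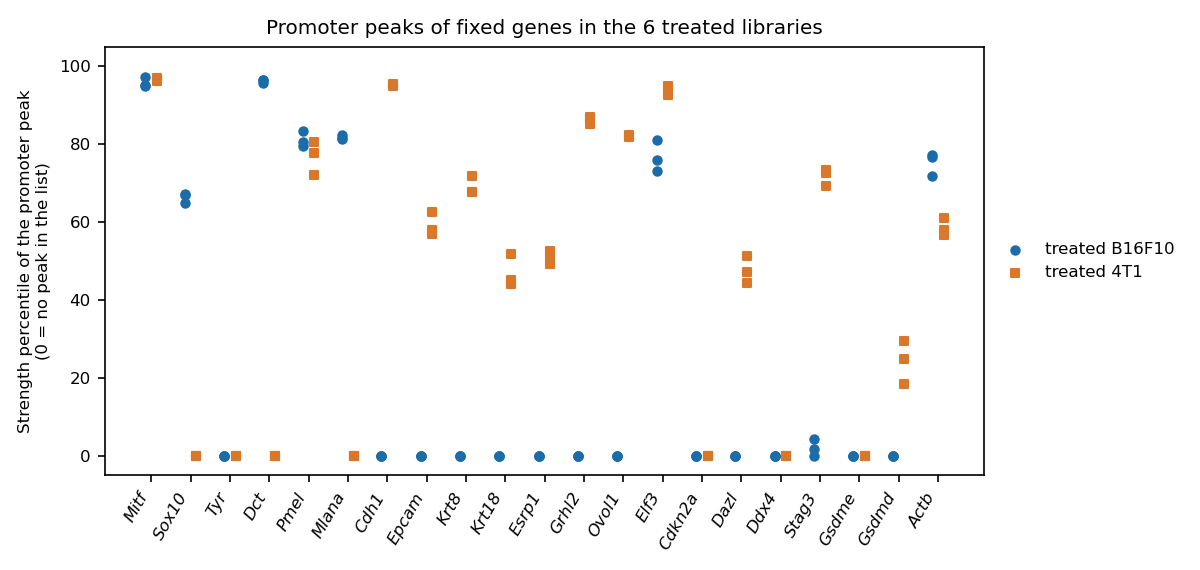
Strength percentile of the promoter peak (0 where the list has none) for 21 genes in the 6 treated libraries, 1 point per library. Dct and Mlana have points of 81.5 or more in B16F10 and at 0 in 4T1, Cdh1 and Grhl2 the reverse, and Mitf and Pmel have high points in both lines.

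Among the same 26 lists, epithelial junction genes had the most members open in treated 4T1 alone. Of 26 genes of epithelial junctions and surface proteases, 16 were open in treated 4T1 alone, 6 in all 6 and 0 in treated B16F10 alone. The shares over all genes were 5.47% in treated 4T1 alone and 3.15% in treated B16F10 alone. Cdh1, which codes for E-cadherin of adherens junctions (start at chromosome 8, position 106603351), stood at 95.2, 95.0 and 95.6 in treated 4T1. Cldn4, a tight junction claudin, had 77.6, 76.1 and 75.9. Epcam, an epithelial adhesion molecule, was weaker at 62.6, 57.9 and 56.9. None of the 16 had a peak in any full list of B16F10, treated or untreated, and all 16 were open in the full lists of untreated 4T1. For Pkp3, a desmosome protein, and Rab25, an epithelial trafficking GTPase, another annotated start was open in B16F10.

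Factors that hold the epithelial state followed the same order. Of 19 epithelial transcription and splicing regulators, 7 were open in treated 4T1 alone, 6 in all 6 and 0 in treated B16F10 alone. All genes gave shares of 5.47% in treated 4T1 alone and 3.15% in treated B16F10 alone. Grhl2, a grainyhead factor that binds junction genes, had 87.0, 85.1 and 86.9 in treated 4T1, and Esrp2, an epithelial splicing factor, 85.3, 83.8 and 81.0. Ovol1, a repressor of mesenchymal genes, stood at 82.4, 82.0 and 82.0 and Esrp1, the paralogue of Esrp2, at 52.7, 49.4 and 51.4. Grhl2 and Esrp1 were open in B16F10 at another annotated start. Elf3, an epithelial ETS factor, was open in all 6 libraries and separated the lines in strength, with 76.1, 81.0 and 73.3 in B16F10 and 92.7, 94.9 and 94.4 in 4T1.

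Keratins, the intermediate filaments of epithelia, gave 6 of 14 members open in treated 4T1 alone and 0 in treated B16F10 alone. Krt8 stood at 71.8, 67.7 and 67.8 and its partner Krt18 at 45.2, 51.8 and 44.3. Krt14, of basal cells, had 48.7, 54.2 and 49.6. Krt16, a stress keratin outside that list, was among the strongest 4T1-alone promoters of all genes, at 99.0, 98.5 and 98.7. Mesenchymal genes gave few calls on either side. Of 18, 1 (5.56%) was open in treated B16F10 alone, 2 (11.1%) in treated 4T1 alone and 6 in all 6. Of all genes, 3.15% and 5.47% were open in treated B16F10 and in treated 4T1 alone. The 1 was Sparc, a matrix protein, at 95.6, 95.4 and 95.5, which also had weak peaks in the 3 full lists of untreated 4T1 and in none of treated 4T1, where another annotated start of the gene was open, and the 2 were Tgfb1 and Twist1. Of 12 milk and mammary secretory genes, Lalba was open in treated B16F10 alone (25.9, 11.6 and 49.2) and Csn3 in treated 4T1 alone (37.6, 36.6 and 42.2). With 1 gene (8.33%) on each side, this list is too small to be set apart from all genes.

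Surface receptors and adhesion genes gave few calls on either side. Of all genes, 3.15% were open in treated B16F10 alone and 5.47% in treated 4T1 alone. The lists here had at most 2 members per side, too few to be set apart from those shares. Of 19 integrin and laminin genes, 2 (10.5%) were open in each treated line alone. Itga4 (the alpha chain of VLA-4) stood at 94.3, 92.6 and 96.7 and Lama4, a vascular laminin chain, at 95.8, 92.2 and 94.2 in B16F10, while Itga3, the alpha chain of a laminin receptor of epithelia, stood at 75.5, 70.9 and 76.2 in 4T1. Among 24 receptor tyrosine kinases 2 were open in each treated line alone (2 and 7 in the full lists), Tyro3 (51.5, 55.2 and 58.1) and Pdgfrb in B16F10 and Epha2 (63.7, 68.0 and 67.9) and Egfr (46.9, 28.9 and 45.8) in 4T1. Fosl1, which codes for the AP-1 subunit FRA-1, was the 1 member of the 14 AP-1 and Tead genes open in one treated line alone, at 78.1, 79.5 and 75.5 in 4T1. Of the other members of that list, 10 were open in all 6 libraries.

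**Figure D2:**
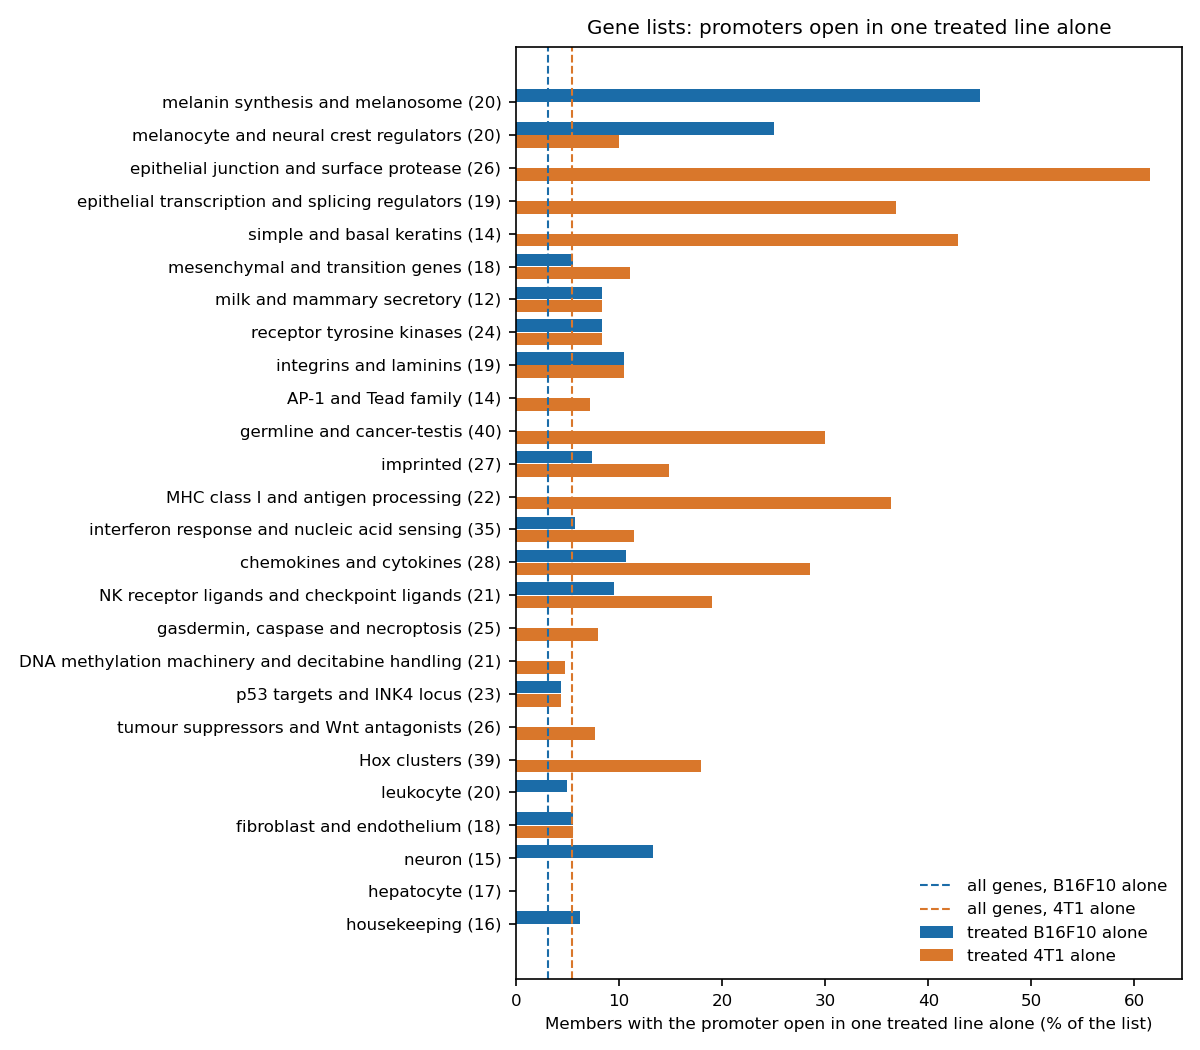
Share of each gene list (members in brackets) whose promoter was open in treated B16F10 alone or treated 4T1 alone at equal peak number, with dashed lines at the shares over all genes, 3.15% and 5.47%. The melanin list reaches 45% on the B16F10 side and 0 on the 4T1 side, and the junction list reaches 61.5% on the 4T1 side and 0 on the B16F10 side.

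Immune genes that were open in one treated line alone lay mostly on the 4T1 side, and all genes leaned the same way. Of all genes, 5.47% were open in treated 4T1 alone and 3.15% in treated B16F10 alone (10.8% and 1.36% in the full lists). The counts below are read against those shares. Of 22 genes of MHC class I and antigen processing, which load peptides for CD8 T cells, 8 were open in treated 4T1 alone, 11 in all 6 and 0 in treated B16F10 alone, and in the full lists 6 were open in treated 4T1 alone. H2-K1, a classical class I heavy chain, stood at 98.5, 98.7 and 98.0 and H2-Q7 at 93.8, 95.1 and 93.6 in treated 4T1, and another annotated start of H2-K1 was open in 2 full lists of treated B16F10. Tap1, the peptide transporter, and Psmb9, an immunoproteasome subunit, share 1 promoter peak at 89.4, 91.7 and 90.9, which 1 full list of treated B16F10 also had. Psmb8, another immunoproteasome subunit, had 80.4, 82.1 and 82.1. H2-D1, the other classical heavy chain in this annotation, was open in all 6 but at 29.1 ± 5.0 in B16F10 against 99.9 ± 0.016 in 4T1. H2-Aa, which is an MHC class II gene, is among the 8 at 40.6, 43.6 and 38.1. All 8 were open in the untreated 4T1 lists as well. MHC genes have near-identical copies and differ between mouse strains, and the sources used here do not say how the aligner treated such reads.

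Of 35 genes of the interferon response and nucleic acid sensing, 23 were open in all 6. Another 4 (11.4%) were open in treated 4T1 alone and 2 (5.71%) in treated B16F10 alone (7 and 0 in the full lists). At equal number this list thus leaned to 4T1 about as all genes did (5.47% and 3.15%). Ifih1 (MDA5, a sensor of double-stranded RNA) stood at 88.9, 86.7 and 88.2, Trim25, a ubiquitin ligase of that pathway, at 83.7, 87.4 and 88.1, and Oas3 at 73.4, 75.0 and 70.3 in 4T1. The 2 on the B16F10 side, Mx1 and Zbp1, had 4T1 peaks in 2 and 3 of the full lists. Of 28 chemokine and cytokine genes 8 were open in treated 4T1 alone and 3 in treated B16F10 alone (12 and 3 in the full lists). Cxcl16, a membrane-bound chemokine, had 85.1, 82.8 and 84.9, and Cxcl10, a T cell attractant, 70.4, 73.3 and 70.2 in 4T1, while Ccl5, another T cell attractant, had 23.1, 45.6 and 42.1 in B16F10. Among 21 ligands of NK and checkpoint receptors, Icosl (85.8, 85.7 and 89.4) and Cd40 (64.4, 70.1 and 69.3) were among 4 open in treated 4T1 alone, against 2 in treated B16F10 alone, Raet1d and Tnfsf18, and in the full lists 7 and 1. Of 25 genes of gasdermins, caspases and necroptosis, Gsdmd, the pore former of pyroptosis, was open in treated 4T1 alone at 29.4, 24.9 and 18.4, as was Il1a. Gsdme, another pore former, had no promoter peak in any of the 12 libraries.

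Of 21 genes of the DNA methylation machinery and of decitabine handling, 12 were open in all 6, 6 in none, 0 in treated B16F10 alone and 1 in treated 4T1 alone, shares near the 3.15% and 5.47% of all genes. Of the 12, 8 stood higher in all 3 treated B16F10 libraries than in any treated 4T1 library and 1 the reverse. Their median difference was −2.70 percentile points (4T1 minus B16F10). Over all 9847 promoters open in all 6 libraries, 51.0% stood higher in B16F10 and 20.7% in 4T1. The median there was −2.82 points, so the list lay near the shift of all promoters. The 1 member open in treated 4T1 alone was Tet2, a dioxygenase that oxidises methylcytosine, at 85.9, 89.2 and 87.3. It was open in untreated 4T1 too. Of 23 p53 targets and genes of the INK4 locus, 18 were open in all 6. Perp, a desmosomal p53 target, was open in treated 4T1 alone at 97.1, 96.3 and 96.4. Cdkn1a (p21, the cell cycle inhibitor) was open in treated B16F10 alone at 47.3, 46.5 and 39.8, with no peak at that 5′ end in any other group, although another annotated start of the gene was open in 4T1. Cdkn2a, the INK4a/ARF gene, had no promoter peak in any of the 12 libraries.

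Germline genes separated the treated lines and hardly the untreated ones. Of 40 germline and cancer-testis genes, whose promoters are commonly methylated in somatic cells, 12 were open in treated 4T1 alone, 5 in all 6 and 0 in treated B16F10 alone. In the full lists 24 were open in treated 4T1 alone. The shares over all genes were 5.47% in treated 4T1 alone and 3.15% in treated B16F10 alone (10.8% and 1.36% in the full lists). Counted per library over all peaks, 7, 9 and 7 of the 40 were open in treated B16F10 and 35, 35 and 34 in treated 4T1, against 5, 5 and 6 in untreated B16F10 and 6, 5 and 5 in untreated 4T1. All 21732 genes gave 13357 to 13628 open promoters per treated 4T1 list and 12303 to 12401 per untreated one. For B16F10 these were 10943 to 11127 and 10822 to 10898. With every library at 49602 peaks the germline counts were 6, 8 and 6 in treated B16F10 and 19, 20 and 19 in treated 4T1, against 5, 5 and 6 and 4, 4 and 4 untreated. The 3 treated 4T1 libraries lay above all others in both counts, and the treated B16F10 libraries stayed near the untreated ones. Of the 12 open in treated 4T1 alone, only Spo11, which makes the meiotic DNA breaks, had a peak in untreated 4T1.

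Brdt, a testis bromodomain protein that binds acetylated histones, stood at 72.0, 67.6 and 61.8 in treated 4T1, and another annotated start of it was open in B16F10. Mov10l1, a helicase of the piRNA pathway that silences transposons in germ cells, had 51.5, 55.1 and 57.5. Dazl, a germ cell RNA-binding protein, had 44.5, 47.1 and 51.3, Boll, of the same family, 48.2, 49.1 and 54.0, and Gtsf1, another piRNA factor, 46.7, 47.6 and 54.3. Apart from that other start of Brdt, none of these 5 had a peak in any full list of B16F10 or of untreated 4T1. Ddx4 (Vasa, a germ cell helicase) had no peak at equal number and one in all 3 full lists of treated 4T1. Stag3, a meiotic cohesin subunit, stood at 73.4, 72.7 and 69.3 in treated 4T1 and at 4.28 and 1.86 in treated B16F10 replicates 2 and 3, with no peak in replicate 1 or in any untreated library, so the groups did not overlap. The promoters of Dazl and Brdt are shown as single examples, with each CG in capitals, beside those of Dct and Krt8.

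Dazl, chr17:50293621-50293870, minus strand: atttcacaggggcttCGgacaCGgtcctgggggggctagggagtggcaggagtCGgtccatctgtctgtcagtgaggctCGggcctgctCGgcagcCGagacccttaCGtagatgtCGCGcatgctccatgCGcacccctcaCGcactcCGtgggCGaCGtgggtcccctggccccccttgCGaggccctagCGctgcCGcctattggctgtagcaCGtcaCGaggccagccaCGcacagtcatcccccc

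Brdt, chr5:107330944-107331193, plus strand: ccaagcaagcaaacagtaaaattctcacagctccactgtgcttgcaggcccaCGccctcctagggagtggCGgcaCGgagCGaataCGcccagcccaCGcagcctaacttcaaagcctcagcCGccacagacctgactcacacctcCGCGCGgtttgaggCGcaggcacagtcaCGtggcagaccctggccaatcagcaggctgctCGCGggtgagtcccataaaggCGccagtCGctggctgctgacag

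These hold 20 and 16 CpG sites. Of all promoters with a RefSeq entry, in tested genes or not, 27.9% have at least 16. Of the 4T1-alone promoters without a peak in untreated 4T1, 55 of 70 had an entry and their median was 14, against 13 for all 4T1-alone promoters. The printed promoters do not stand for their gene lists. Counted per 100 bases over the whole promoter, CpG density ran from 1.35 to 8.50 across the 12 germline genes of treated 4T1 alone. Its middle value was 3.32 there and 3.22 in the other 28 germline genes. Among epithelial genes of treated 4T1 alone, density was 0.750 at Krt7, 2.70 at Krt8 and 7.95 at Ovol1.

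**Figure D3:**
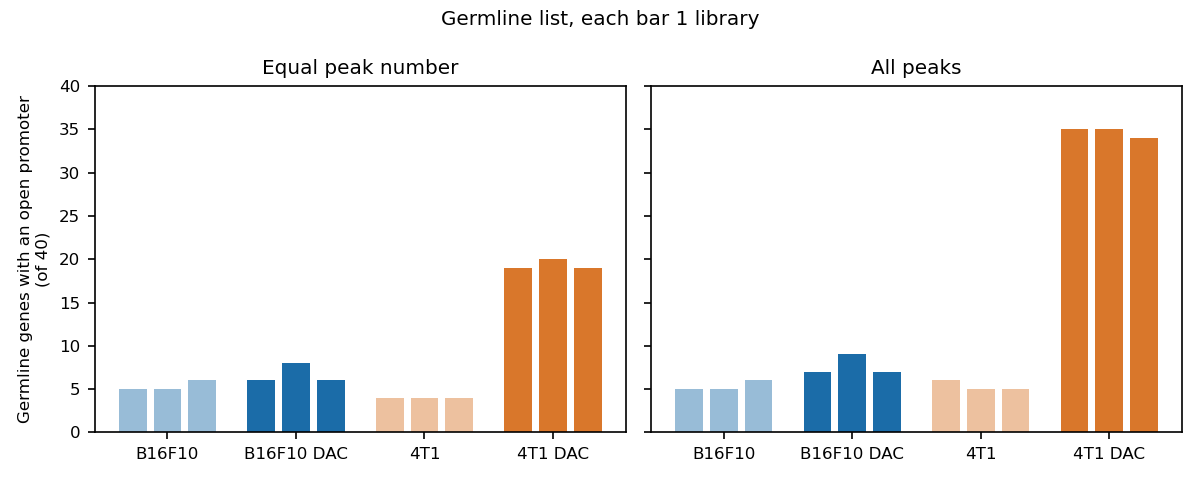
Number of 40 germline genes with an open promoter in each of the 12 libraries, with every library at 49602 peaks (left) and with all peaks (right), 1 bar per library. The 3 treated 4T1 bars reach 19 to 20 and 34 to 35, and the bars of the other groups stay between 4 and 9.

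Over all genes, 103 promoters that were closed in all untreated libraries at 49602 peaks were open in treated 4T1 alone, 8.97% of the 1148, and 98 of these were also 4T1-alone in the full treated lists. In the full untreated lists, 56 of the 103 had no peak in either line and 40, Cldn7, Csn3, Il1a, Krt17 and Lef1 among them, had one in all 3 untreated 4T1 libraries. The same path led to treated B16F10 alone for 14, which is 2.00% of the 701, and 6 of them held in the full treated lists, while 7 had no peak in any full untreated list. The strongest of the 4T1 promoters without an untreated peak was Hs3st1, which codes for a heparan sulfate sulfotransferase, at 90.6, 91.5 and 94.1. Tmeff2, a transmembrane protein, followed at 74.3, 74.1 and 78.3, and Gpat2, a testis-expressed acyltransferase, at 71.8, 67.8 and 74.4. Rbm44, an RNA-binding protein of germ cells, had 62.6, 65.7 and 66.2. In B16F10, 6 promoters had no peak in the full lists of untreated B16F10 or of treated 4T1. Cdkn1a was the strongest of them, Cyb5r2, a cytochrome b5 reductase, followed at 21.2, 35.9 and 32.2, and Msantd1, Angptl1, Hopx and Csrp3 were weaker.

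Of 27 imprinted genes, which are methylated on the allele of one parent, 4 were open in treated 4T1 alone and 2 in treated B16F10 alone (6 and 0 in the full lists). All genes gave shares of 5.47% and 3.15% (10.8% and 1.36% in the full lists). Some genes of this list share a peak, so counts this small are not set apart from those shares. Peg3 and Usp29 share 1 promoter peak, at 32.5, 34.8 and 25.8, and this peak and that of Zrsr1 (40.4, 42.6 and 38.4) were absent from all untreated libraries. Phlda2 (60.1, 59.1 and 45.7) was open in untreated 4T1 as well. Peg10 and Sgce share the peak on the B16F10 side (49.3, 64.5 and 47.3), and all 3 full lists of treated 4T1, but none of untreated 4T1, also had a peak there.

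Some line differences of the untreated cells at equal number were not seen in the treated libraries. At 49602 peaks, 41 promoters that were open in untreated B16F10 alone were open in all 6 treated libraries, among them Mmp14, a membrane metalloprotease, Piwil2, a piRNA-binding protein, and Rsad2 (viperin), although 21 of the 41 had a peak in all 3 full lists of untreated 4T1. Another 26 that were open in untreated 4T1 alone were open in all 6 treated libraries, among them Gata3, the luminal mammary factor, Fas, the death receptor, and Ulbp1, a ligand of an NK cell receptor. Gata3 had a peak at 29.2, 16.4 and 14.0 in treated B16F10 and none in untreated B16F10, and stood at 94.8, 94.3 and 95.6 in treated 4T1, so the lines did not overlap. Conversely 60 promoters open in all 6 untreated libraries were open in treated B16F10 alone, and all 60 had a peak in a treated 4T1 full list. Mc1r, the melanocortin receptor that controls pigment type, is 1 of them and stood at 78.4, 76.6 and 77.8 in treated B16F10.

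The strongest promoters of one line alone also included genes outside these lists. In treated B16F10 these were Car6, a secreted carbonic anhydrase (99.1, 98.7 and 98.7), Ehhadh, a peroxisomal enzyme (98.7, 99.2 and 98.4), and Fcgrt, the neonatal Fc receptor (97.8, 97.03 and 96.2). Another annotated start of Car6 was open in 4T1. In treated 4T1 they were Ifi204, an interferon-inducible DNA sensor of the Ifi200 cluster (99.7, 99.7 and 99.7), Myh10, non-muscle myosin IIB (99.5, 99.5 and 99.7), H2-Q6, a non-classical class I gene (99.5, 99.4 and 99.3), and Ifi203 and Mndal, which share 1 peak (99.2, 99.5 and 99.1). These 4T1 promoters had no peak in any B16F10 full list. Ifi200 and MHC genes lie in clusters of similar copies that vary between strains.

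Promoters open in all 6 libraries could still differ in strength. Of the 9847, 5020 (51.0%) stood higher in all 3 treated B16F10 libraries than in any treated 4T1 library and 2041 (20.7%) the reverse, and the median difference (4T1 minus B16F10) was −2.82 percentile points, so that a difference is read against that shift. A gap of at least 25 points was seen at 749 promoters on the B16F10 side and 158 on the 4T1 side. On the 4T1 side the widest gaps were those of Dmpk, a muscle kinase (7.46 ± 1.23 against 89.6 ± 0.77), Apol7a (15.9 ± 11.5 against 94.3 ± 1.21) and Gata3 (19.9 ± 8.16 against 94.9 ± 0.67). S100a4, a calcium-binding protein of motile cells, had 20.7 ± 11.8 against 92.4 ± 1.03 and F11r, the junctional adhesion molecule A, 30.7 ± 16.4 against 95.8 ± 0.94. On the B16F10 side they were Foxred2, an oxidoreductase of the endoplasmic reticulum (96.3 ± 0.35 against 5.93 ± 1.98), Ccdc166 (99.1 ± 0.18 against 9.73 ± 8.28), Gpnmb and Map2k6, a p38 kinase kinase (90.8 ± 0.94 against 8.37 ± 4.00). Hoxc6, a positional identity factor, had 91.0 ± 2.06 against 17.5 ± 5.26. Actb stood at 76.8, 72.0 and 77.3 in B16F10 and 57.9, 61.2 and 56.6 in 4T1, and the median difference (4T1 minus B16F10) over the 13 housekeeping promoters open in all 6 was −5.09 points.

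**Figure D4:**
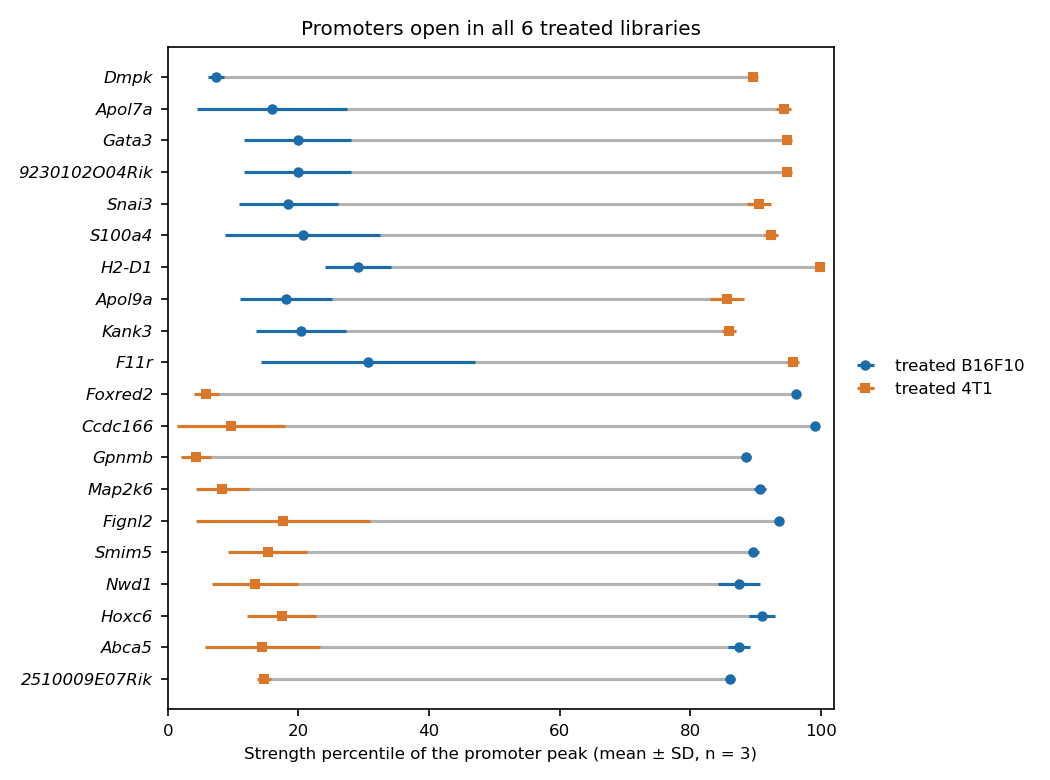
Mean strength percentile ± SD (n = 3 libraries per line) of the promoter peak for the 20 promoters with the widest gaps among those open in all 6 treated libraries. H2-D1 is at 99.9 in 4T1 and 29.1 in B16F10, and Foxred2 is at 96.3 in B16F10 and 5.93 in 4T1.

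Regions open in one treated line alone lay mostly outside promoters, as did regions open in only some libraries. Merged peaks of the 6 libraries formed 99330 regions, of which 19877 (20%) were open in B16F10 alone, 25904 (26.1%) in 4T1 alone and 19675 (19.8%) in all 6. A promoter was overlapped by 4.0% of B16F10-alone and 4.96% of 4T1-alone regions. The share was 44.6% for regions open in all 6 and 3.25% for the remaining 33874. Of the B16F10-alone regions, 13078 (65.8%) had no peak in any treated 4T1 full list, and of the 4T1-alone regions 25683 (99.2%) had none in treated B16F10. The Jaccard index, the covered bases shared over those covered by either library, was 0.274 ± 0.0031 between the treated lines (9 pairs) against 0.819 within treated 4T1 and 0.682 within treated B16F10 (3 pairs each). At 49602 peaks it was 0.277 between the treated and 0.286 between the untreated lines, and 0.659 and 0.674 between untreated and treated libraries of 4T1 and B16F10. The lines were therefore further apart than treatment set either line from itself.

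Motif content at the peak summits separated the lines. A site matching AP-1 (TGANTCA, either strand, 200 bases around the summit) was in 9.82, 10.1 and 9.97% of peaks of treated B16F10 and in 38.9, 39.1 and 38.9% of treated 4T1, against 6.01% of 200-base windows of the genome. In peaks outside promoters the means were 11.5% and 46.6%. A SOX site (AACAATG) was in 4.59 ± 0.076% of B16F10 and 2.56 ± 0.022% of 4T1 peaks, with 3.90% in the genome. CTCF sites, which mark insulators, were in 4.33 ± 0.19% and 2.85 ± 0.020%, with 0.106% in the genome. TEAD (GGAATG) was in 13.8% and 15.6%, and RUNX (TGTGGT) in 15.4% and 17.2%. The E-box variant that MITF binds (TCANGTG) was in 10.1% and 11.0% of peaks and in 11.0% of genome windows, so this motif was not more frequent in the melanoma line. TFAP2 (GCCNNNGGC) was in 11.6% in both lines (exact two-sided permutation test, p = 0.90). Of 56 measures of peak composition tested this way, the others described did not overlap between the lines and reached an exact permutation p of 0.10, the smallest possible (Benjamini-Hochberg adjusted p = 0.102).

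Another 3 motifs differed by more between the treated lines than between the untreated ones. A cyclic AMP response element (CRE, TGACGTCA) was in 0.839 ± 0.0060% of treated B16F10 and 5.01 ± 0.090% of treated 4T1 peaks, NFY (CCAATCA) in 4.12 ± 0.054% and 10.3 ± 0.075%, and FOX (TGTTTAC) in 2.38 ± 0.051% and 6.74 ± 0.088%. With 49602 peaks in each of the 12 libraries, CRE was in 0.836% of untreated and 0.887% of treated B16F10 peaks and in 1.10% and 5.04% of 4T1 peaks. NFY was at 4.12% and 4.27% in B16F10 and 4.20% and 10.3% in 4T1, and FOX at 2.28% and 2.35%, and 2.60% and 6.64%. The line difference in NFY was thus 0.081 percentage points without and 6.05 with DAC. Relabelling treatment within each line, an exact two-sided permutation test with 400 relabellings, gave p = 0.10 for the change of the CRE and NFY differences and p = 0.095 for FOX. That test has little power when the 2 lines shift the same way, as the means did for these motifs.

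These motifs lay in repeat-rich 4T1 regions that untreated 4T1 lacked. Peaks made mostly of repeats (at least 50% soft-masked bases) were 3.86 ± 0.081% of treated B16F10 and 11.3 ± 0.068% of treated 4T1 peaks. At 49602 peaks the share went from 4.13% to 3.54% with DAC in B16F10 and from 3.11% to 10.9% in 4T1, so that the line difference turned from −1.01 to 7.34 percentage points (exact two-sided permutation test, p = 0.005, adjusted p = 0.028). Outside promoters, 3855 regions open in treated 4T1 alone had no peak in untreated 4T1. Of these, 82.3% were mostly repeat, 47.4% had a CRE, 71.4% an NFY and 53.1% a FOX site, and 8.38% an AP-1 site. Among the 3172 of them that were mostly repeat, 52.4% held all 3 of CRE, NFY and FOX and 1.17% an AP-1 site. The other 683 had AP-1 sites in 41.9% and CRE in 5.42%. Repeats hold many similar copies, and the sources used here do not say how reads with several matches were placed.

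The 20033 regions outside promoters that were open in treated 4T1 alone and in all 3 untreated 4T1 libraries differed from that group. Of these, 66.1% had an AP-1 site, 23.2% a RUNX site, 6.36% were mostly repeat, and 0.879% had a CRE. Their median rank was 46.3, against 24.15 for the 3855. In B16F10 the 15361 regions open in all 3 untreated libraries had AP-1 in 6.80% and SOX in 7.60%, and the 975 without an untreated peak had 11.6% and 6.15%, with 4.21% mostly repeat. The repeat-rich group seen in 4T1 was thus far rarer among the B16F10 regions without an untreated peak, at its lower dose.

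**Figure D5:**
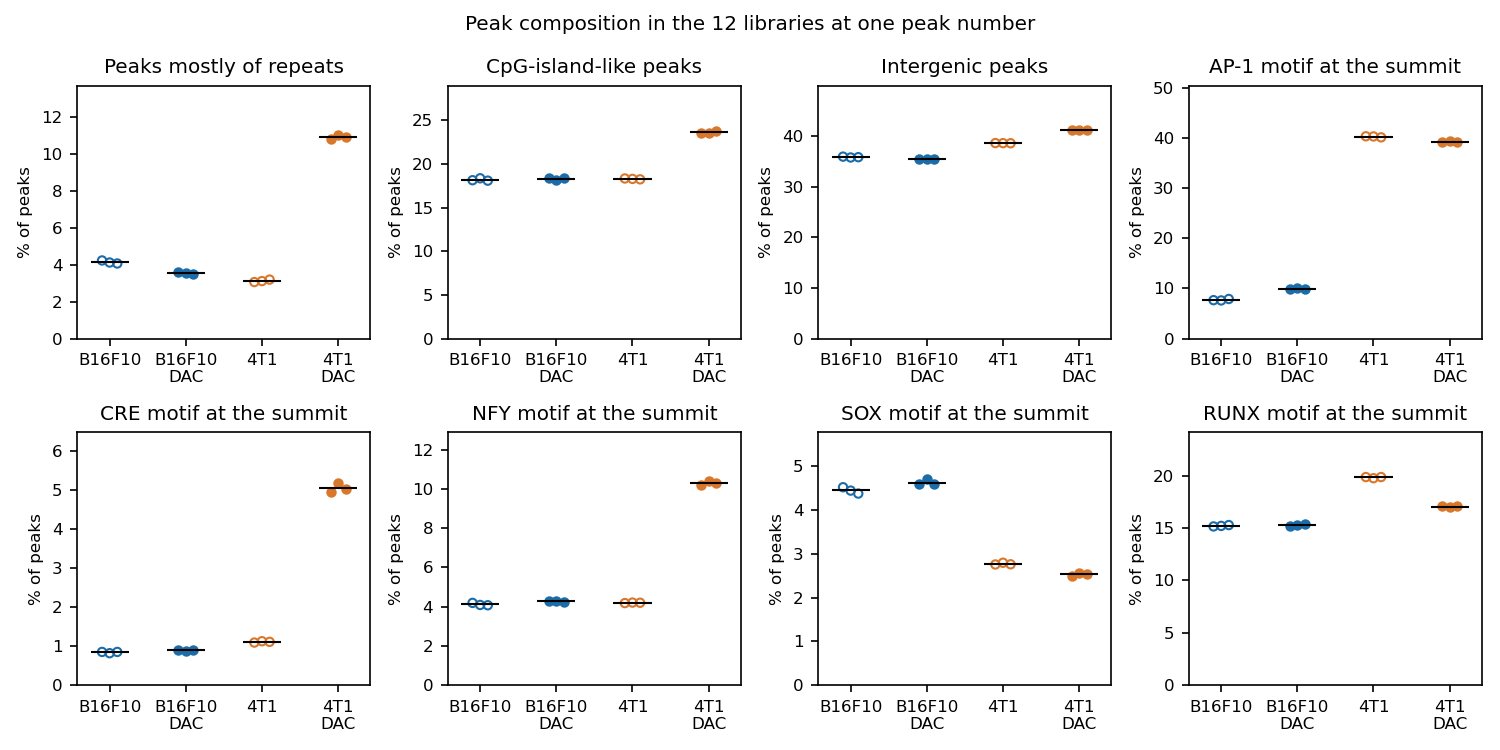
Share of peaks (%) in each of the 12 libraries at 49602 peaks for 8 measures of peak composition, with open points for untreated and filled points for treated libraries and a line at each mean of 3. AP-1 and SOX shares separate the lines with and without DAC, and repeat, CRE and NFY shares are high in treated 4T1, the repeat share near 10.9%.

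The AP-1 difference between the lines was smaller after DAC. At 49602 peaks AP-1 was in 7.71% of untreated and 9.93% of treated B16F10 peaks and in 40.3% and 39.3% of 4T1 peaks, so the line difference went from 32.6 to 29.4 percentage points (exact two-sided permutation test, p = 0.005, adjusted p = 0.028). The RUNX difference went from 4.63 to 1.80 points (exact permutation, p = 0.03, adjusted p = 0.0933), with 19.8% of untreated and 17.1% of treated 4T1 peaks. The SOX difference widened from −1.68 to −2.09 points (4T1 minus B16F10, exact permutation, p = 0.005, adjusted p = 0.028). These are shares of lists of one length, and in 4T1 the repeat share grew in the same lists, so its part in the lower AP-1 and RUNX shares was not tested.

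Peak width, CpG content and position differed too. Treated 4T1 peaks covered 41.0 ± 0.80 Mb with a median width of 678 ± 13.8 bp, and treated B16F10 peaks 33.1 ± 1.23 Mb with 519 ± 22.9 bp. Intergenic peaks were 41.8 ± 0.013% in 4T1 and 35.9 ± 0.058% in B16F10, and intronic peaks 34.2 ± 0.042% and 40.1 ± 0.099%. Peaks with the composition of CpG islands were 22.6 ± 0.13% and 17.0 ± 0.13%. With 49602 peaks the island-like share was 18.2% and 18.3% in untreated B16F10 and 4T1, and 18.3% and 23.7% after DAC. Among the 3855 4T1 regions named above, 47.4% were island-like, against 2.48% of the 20033. Promoters held 19.5 ± 0.020% of 4T1 and 18.8 ± 0.055% of B16F10 peaks, a difference that turned to the other direction in the full lists (−6.35 points) and when peaks were ranked by fold enrichment (−0.35 points).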

How the data were processed

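The files used were 1 narrowPeak list per library, called on each library separately. Per the submitters' processing notes the build was mm10 and the tools included Bowtie2, Picard, MACS2, DiffBind, ChIPseeker, FastQC and MultiQC, with no version or role stated. The deposited fold enrichment of a peak is a ratio to the local background of its own library, made by the authors' peak caller. The −log10 p-value and −log10 q-value of each peak are the authors' and grow with depth. The deposited score is the −log10 q-value times 10, cut to a whole number, and was not used in any comparison. The lists hold no read counts, so values carry no counting interval, and the sources used here do not say which library ran on which of 2 instrument types.

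Peaks on chromosomes 1 to 19 and X were ranked by −log10 p-value and limited to 54007 per library (49602 where all 12 libraries were compared). Genes came from GENCODE M21 on GRCm38.p6, with 21732 genes that are protein-coding or members of a gene list of another type. A promoter was the 5′ end plus and minus 1000 bp. Promoters and regions were compared by overlap of at least 1 bp and counted as one line alone with 3 of 3 libraries against 0 of 3, with no test. Repeat content used soft-masked bases, and island-like peaks had a CpG observed to expected ratio above 0.6 and GC above 50%. Within 200 bp centred on each summit, 25 consensus motifs were searched on both strands, and the genome share is that of 255922 windows of the same length. Promoter sequences are from RefSeq, matched by symbol. Per-library values were tested by exact two-sided permutation of line labels (20 relabellings) and the change of a line difference with DAC by relabelling treatment within each line (400 relabellings, smallest p 0.005), each with Benjamini-Hochberg adjustment over 56 measures. The second test assumes no shift with DAC in either line. Its smallest p is reached only when the lines shift in opposite directions. Scripts used Python 3.11.15, numpy 2.4.6, pandas 2.3.3, scipy 1.17.1, pysam 0.24.0 and matplotlib 3.10.9, and the counting steps were tested on simulated peaks.

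The members, gene lists and tests were chosen with earlier results of these data known. The genes named are the 12 strongest one-line-alone promoters per direction without a peak in the other treated line's full lists, up to 4 members per list and direction, the 8 strongest per direction without a peak in the untreated libraries of the line, 21 fixed genes, the 10 widest percentile gaps per direction and the 5 strongest distal regions per direction, and not all of these are described. Some genes that the rule names are not reported here. A few list members beyond these, and the region upstream of Myc, were chosen after their values were seen. Alternatives were all peaks, 49602 peaks, ranking by fold enrichment, a −log10 q-value of at least 5, 2 of 3 libraries, no peak in the other line's full lists, other promoter widths and starts, summit position, each library left out, a replicate block, every deposited line and, chosen after seeing the data, peaks outside promoters. Same-numbered libraries of the lines deviated together with correlations of 0.0046 to 0.038 over 9847 promoters, so the numbers were not taken as pairs.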

Additional observations from a re-analysis of the deposited data

Results flagged for a closer look

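Line differences (4T1 minus B16F10, in percentage points of 49602 peaks per library) that changed with DAC are given here because relabelling treatment within each line gave p = 0.005, the smallest that this exact two-sided permutation test allows, and an adjusted p of 0.028. That p is reached only where the 2 lines shifted in opposite directions, so these are not the largest changes as such. Both lines shifted upward in NFY and in island-like peaks. Those differences changed by 5.97 and 5.26 points (same permutation test, p = 0.10 and 0.08). The share of peaks mostly made of repeats changed by 8.36 points and that of intergenic peaks by 3.04. The AP-1 difference changed by −3.20 points, TEAD by −0.978, SOX by −0.417 and POU by 0.339. The exon share changed by −0.489. By chromosome, the difference changed by −0.341 points on chromosome 6, −0.316 on chromosome 15 and 0.369 on chromosome X. In treated B16F10 the chromosome X share was 2.05% against 2.28% untreated, and in treated 4T1 2.12% against 1.98%.

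Chromosome Y was not part of any comparison. Its lists held 151 ± 12.2 peaks in treated 4T1 against 55 in untreated 4T1, and 25 in each treated B16F10 library against a mean of 20.3 in untreated B16F10 (n = 3 each).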

How the results depend on the processing

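With all peaks of each list the promoters open in one treated line alone numbered 295 for B16F10 and 2350 for 4T1 (684 and 1188 at equal number), and at a −log10 q-value of at least 5 they numbered 295 and 2190. Without a peak in the other line's full lists 288 B16F10 promoters and 13078 B16F10 regions were counted. Regions open in 4T1 alone numbered 56877 with all peaks, and at a −log10 q-value of at least 5 the counts were 11801 for B16F10 and 53645 for 4T1 (19877 and 25904 at equal number). The fewer 4T1 peaks kept at equal number account by construction for part of these shifts. The promoter share (4T1 minus B16F10, 0.681 points at equal number) turned to −6.35 with all peaks and −0.351 when ranked by fold enrichment, and the island-like share turned to −0.702 with all peaks, where the change of its line difference with DAC was 5.37 points (exact two-sided permutation test, p = 0.03). The change with DAC of the promoter difference was −0.0735 with all peaks. The cause of these turns was not tested. With all peaks the line differences were 25.7 Mb of covered bases, 9.14 points of intergenic, 0.804 of TEAD, 2.25 of CRE and 2.70 of RUNX peaks, against 7.89, 5.97, 1.77, 4.17 and 1.77 at equal number. Leaving out each library in turn gave 696 to 748 promoters for B16F10 and 1212 to 1231 for 4T1, and 20188 to 22688 and 26522 to 26922 regions. Fewer libraries relax the rule for a call, so by construction every main promoter call was kept and the promoter counts could only rise. With the replicate block the counts were 684 and 1188 promoters and 19877 and 25904 regions, and the differences were the same with an exact p of 0.25, the smallest that 3 pairs allow, so the block says nothing on the calls. The same-numbered libraries correlated best with their own number in 2 of 3 pairs. Among 52 counts of list members, 20 moved by more than 1.5 times with all peaks. Checks of the main results stayed the same in 200 cases, moved in 9, reversed in 3, and were weaker in 1 and stronger in 1. With 3 libraries per line the exact permutation test between the lines cannot go below p = 0.10, so its side of the threshold could not change. The lists of 4T1 hold peaks too weak to enter at equal number, so closed means closed among the 54007 strongest.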

Other observations

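Counts for the other gene lists are read against all genes, of which 3.15% were open in treated B16F10 alone and 5.47% in treated 4T1 alone at equal number, and 1.36% and 10.8% in the full lists. Of 39 Hox genes, which set positional identity and lie in 4 clusters of similar genes, 7 were open in treated 4T1 alone, 0 in treated B16F10 alone and 25 in none, and in the full lists 18 were open in treated 4T1 alone. Hoxa5 stood at 40.4, 46.8 and 32.4 and Hoxa9 at 39.7, 39.7 and 33.5 in treated 4T1, and another annotated start of Hoxa9 was open in B16F10. Of 26 tumour suppressors and Wnt antagonists 2 were open in treated 4T1 alone, Sfrp1, a secreted Wnt antagonist, at 60.6, 57.4 and 64.6 and Rassf1, a RAS effector, at 58.7, 59.2 and 55.4, a share near that of all genes, and 9 in the full lists. Of 15 neuronal genes 2 were open in treated B16F10 alone at equal number, Tubb3 (74.7, 73.8 and 71.9) and Rbfox3, and both had peaks in all 3 full lists of treated 4T1. In the full lists 13 of the 15 were open in each treated 4T1 library against 5, 5 and 6 in untreated 4T1 and 3 in each treated B16F10 library. Of 17 hepatocyte genes 16 were open in none of the 6 libraries, and of 16 housekeeping genes 13 were open in all 6. Of 18 fibroblast and endothelial genes 1 was open in each treated line alone, a share near that of all genes, and Flt1, a VEGF receptor, was open in treated 4T1 alone at 74.9, 71.9 and 71.4.

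Open regions of one line also lay in long stretches without any peak of the other treated line in the full lists. Those lists hold 54007 to 58443 peaks in B16F10 and 107938 to 118438 in 4T1. Stretches without a B16F10 peak can therefore run longer by construction, and their lengths are not compared between the lines. In 4T1 the stretch with the most regions was chr13:70840580-73160171, which spans 2320 kb with 35 regions around Irx1 and Irx2, homeobox genes, and Adamts16, and which had 1 peak of untreated B16F10. Another, chr1:173398832-175041323, spans 1642 kb with 26 regions and holds the Ifi200 cluster. The stretch chr5:112433424-113365993 held 25 regions and no untreated B16F10 peak. In B16F10 the stretch with the most regions was chr3:79883528-80014868, with 11 regions over 131 kb at Fam198b, followed by chr7:107661538-107854051 with 10 regions, at Cyb5r2. Chromosome 6 held 6.61% of treated B16F10 and 4.85% of treated 4T1 peaks, and chromosome 3 held 4.64% and 5.78% (exact two-sided permutation test, p = 0.10 each).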
